A study of Mus musculus with 10 samples.

Results

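Untreated intestine of C57BL/6 mice transgenic for the integrin subunit ITGB6 (TG, 3 libraries) was compared with that of wild type mice (WT, 3 libraries), 6 of the 10 libraries in the series. The comparison took in all libraries that the labels call untreated and asked, across all genes, how the resting tissue of TG mice differs from that of WT mice. The other 4 libraries, 2 WT and 2 TG, came from mice given 2.5% dextran sulfate sodium (DSS, a detergent-like polymer that injures the colon lining) by mouth. They had no part in the contrast, but entered the estimate of spread between replicates and the filter that chose the genes tested. The untreated libraries are called WT1 to WT3 and TG1 to TG3 by the replicate numbers of their titles, and the plots spell these out as WT untreated 1 and so on.

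The labels give strain, genotype and treatment, and no age, sex, gut segment, transgene promoter or number of founder lines. They do not say whether the 3 libraries of a genotype come from 3 animals, and the p-values therefore cover only the variation among these libraries, which may be technical. Epithelial genes were abundant in every untreated library. Krt8, an epithelial keratin, read 6576 to 8801 CPM (counts scaled to equal library size, after TMM), and Epcam, an epithelial adhesion molecule, 1566 to 1695 CPM. The smooth muscle actin gene Acta2 read 0.235 to 1.25 CPM, so the muscle wall is scarcely represented although the label is intestinal tissue. Car1, a carbonic anhydrase abundant in the large bowel, read 4430 to 9448 CPM, while Apoa1, a small intestinal apolipoprotein, read 0 to 2.52 CPM. Depth was 15393859 to 17304237 expected counts per untreated library over 16391 to 16949 listed genes. In tissue RNA, fewer cells of a type and less RNA per cell cannot be told apart.

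As background, ITGB6 pairs with the alpha v subunit to form an integrin found mainly on epithelial cells. It binds fibronectin, tenascin and the latency peptide of TGF-beta, and by pulling on that peptide it frees active TGF-beta for nearby cells. Resting gut epithelium carries little of it, and injured or remodelling epithelium more. The colon lining is renewed from crypt stem cells and holds absorptive colonocytes, mucus-making goblet cells with a large endoplasmic reticulum (ER), hormone-making cells and lymphocytes that sit between the epithelial cells.

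The transgene was read first, since it checks the labels. The deposited tables carry a human ITGB6 entry beside mouse Itgb6 (chromosome 2, 60598292 to 60722603, GRCm38.p6, the build of all positions given here). Human ITGB6 read 0.117, 0.119 and 0.123 CPM in WT and 3632, 3853 and 3913 CPM in TG (libraries 1, 2 and 3 of each genotype, in this order throughout). All 3 TG libraries were high and all 3 WT libraries held 2 counts each, so every library matched its label. The ratio of TG to WT was 31700 with a 95% counting interval of 14600 to 86400, which covers counting error only. Per length, human ITGB6 stood at 742, 827 and 807 FPKM (fragments scaled by gene length and library depth), rank 115, 100 and 94 of all listed genes, and 224, 208 and 192 times the FPKM of mouse Itgb6 in the same libraries. Mouse Itgb6 itself read 22.4, 21.8 and 20.1 CPM in WT and 16.5, 18.9 and 20.9 CPM in TG. Its groups overlapped and it did not pass the test (log2 difference -0.19 ± 0.14, adjusted p = 0.449). How the authors' pipeline divided reads between the human and mouse sequences is not given in the sources used here.

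TG1 stood apart from the other 5 libraries before any comparison was made. Its rank correlation with them was 0.9636 to 0.9754, against 0.9782 to 0.9958 among the other 5. The first principal component of the 6 libraries held 46.5% of the variance and placed TG1 at 58.2, far from TG2 and TG3 at 10.9 and 5.36. WT lay at -33.93 to -20.03 and TG at 5.36 to 58.2 on it, so the genotypes did not overlap. The second component held 26.5% and did not separate them, with TG1 at 25.2 beside WT at 12.1 to 13.45, and TG2 and TG3 at -33.48 and -29.85. In TG1, 837 tested genes were at least 2-fold below every other untreated library and 2 genes at least 2-fold above. For the other 5 libraries these counts were 19 to 29 below and 4 to 43 above. Ptprc, the pan-leukocyte phosphatase CD45, was among the 837, at 66.2, 114 and 62.8 CPM in WT and 8.94, 56.9 and 79.5 CPM in TG. Ddx3x, a widely expressed RNA helicase, was among them too, at 353, 327 and 339 CPM in WT and 122, 359 and 318 CPM in TG. The low genes held 10 of 18 pan-leukocyte genes and 14 of 23 T cell genes, against 837 of all 14072 genes tested. These 2 lists have no gene in common, and most of the 837 were genes outside them.

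As a set, the 837 genes were lower in GC content and longer than tested genes at large. Their median transcript GC content was 41.3%, against 49.8% over all genes tested, and their median length 4081 bases, against 2760 (GC content was known for 97.0% of the 837 and 95.6% of tested genes). When the tested genes were divided into 5 groups by GC content, the median log2 CPM difference of TG1 from the WT mean was -0.69, -0.16, 0.09, 0.18 and 0.18 from the lowest to the highest GC group. TG2 ran from 0.10 to -0.07, TG3 stayed between 0.01 and 0.04, and no WT library left -0.03 to 0.02. For each gene named below as past the threshold, a call that ended without TG1 is therefore stated. Of the called genes, 64 did not pass without TG1, and most of these are not named. Most list medians are given with and without TG1. Differences without TG1 are given for part of the genes. For some lists, counts are also given after a per-library offset for GC content and length. That offset was chosen after the data were seen.

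**Figure D1:**
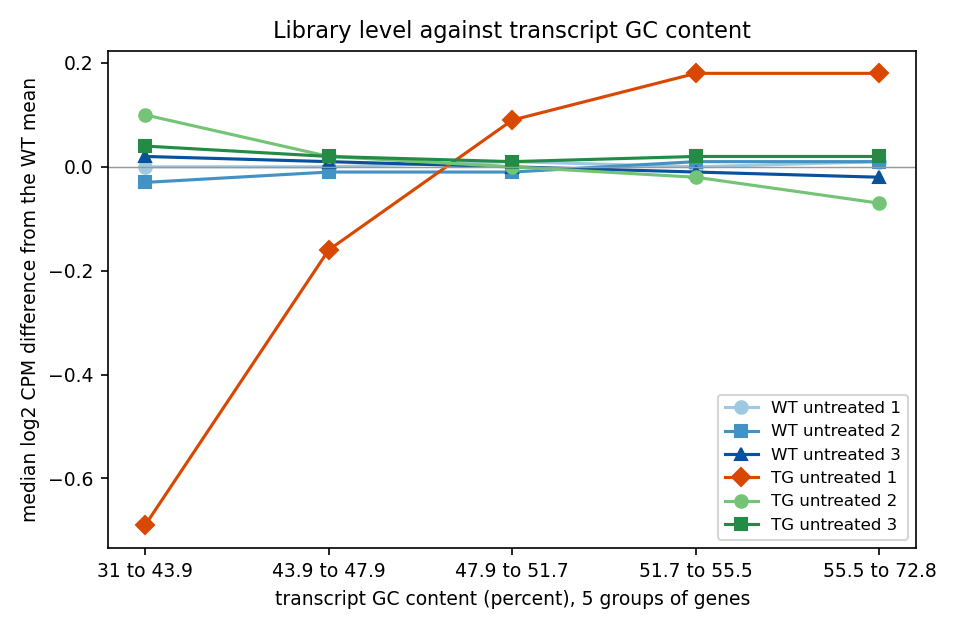
Median log2 CPM difference of each untreated library from the WT mean (vertical axis) in 5 groups of tested genes ordered by transcript GC content in percent (horizontal axis), with 1 line per library. TG1 climbs from -0.69 in the lowest GC group to 0.18 in the highest, while the other 5 libraries stay between -0.07 and 0.10.

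Of 14072 genes tested, 318 were higher in TG (2.26%) and 202 lower (1.44%) by edgeR's quasi-likelihood test with Benjamini-Hochberg adjustment over all genes, at adjusted p under 0.05. The counts of all lists below stand against these shares. Where a call ended when 1 untreated library was left out, that library is named with the adjusted p then reached, for each gene the text names as past the threshold. Log2 differences are given ± SE. All adjusted p-values below come from this test unless another is named. Under total count scaling the split was 235 higher and 382 lower, and on log2 FPKM with a pseudocount of 1 it was 225 and 331; these scalings place the median gene at -0.097 and -0.082, against -0.016 here. The 3 TG and 3 WT libraries of all 520 genes did not overlap in CPM, which was true of 4507 tested genes (32.0%). At least 2-fold differences numbered 128 higher and 71 lower, and the median log2 difference was 0.85 for the higher and -0.79 for the lower genes.

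TG1 had medians close to those of TG2 and TG3 over these 520 genes, which were chosen by a test that included it. Over the higher genes the median difference from the WT mean was 0.87, 0.90 and 0.83 in TG1, TG2 and TG3, and over the lower genes -0.81, -0.84 and -0.77. TG1 was the TG library farthest from WT for 132 of the higher genes (TG2 123, TG3 63) and for 79 of the lower genes (TG2 73, TG3 50). Only 2 of the 837 genes low in that library passed the test. Leaving TG1 out raised the count to 434 higher (3.09%) and 296 lower (2.11%) of 14054 genes. Of the 520 genes, 456 passed again, 63 were tested and missed the threshold, 1 was no longer tested, and all 519 tested kept their sign. Since the groups of no called gene overlapped, leaving out 1 library could hardly reverse a sign. With the GC content and length offset 528 were higher (3.93%) and 375 lower (2.79%) of 13452 genes, 481 of them shared. The other libraries weighed more: the total was 132, 91 and 58 without WT1, WT2 and WT3, and 136 and 247 without TG2 and TG3. By all 6 of these fits and by the fit of the untreated libraries alone, 46 genes passed, 27 higher and 19 lower.

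**Figure D2:**
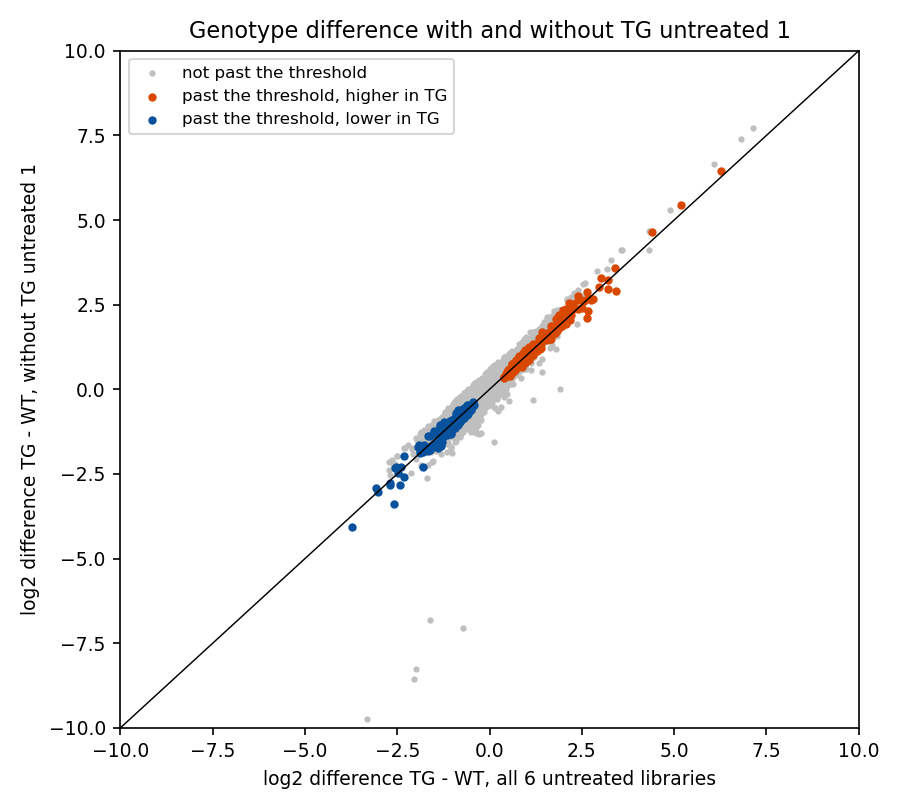
Fitted log2 difference of TG from WT with all 6 untreated libraries (horizontal axis) and without TG1 (vertical axis). Each point is 1 gene tested in both fits, other than human ITGB6. Genes past the threshold are orange where higher in TG and blue where lower. The 1 called gene not tested without TG1 is not drawn. The coloured points lie along the diagonal. None of them changes sign, which the absence of overlap between the groups of every called gene all but fixes.

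Genes of varied function gave the largest differences that passed in all those fits. Pla2g4c, a cytosolic phospholipase A2 (gene ID 232889, chromosome 7, 13311507 to 13360674), read 50.1, 24.7 and 34.1 CPM in WT and 334, 292 and 385 CPM in TG. Every TG library was at least 5 times the highest WT library (log2 difference 3.21 ± 0.23, adjusted p = 0.000291, and 3.22, adjusted p = 0.000333 without TG1). Retnlb, a bactericidal product of goblet cells (gene ID 57263, chromosome 16, 48816856 to 48818892), read 201, 101 and 183 CPM in WT and 1241, 1173 and 835 CPM in TG (log2 difference 2.74 ± 0.25, adjusted p = 0.000956, and 2.64, adjusted p = 0.000772 without TG1). Fn1, the matrix protein fibronectin and a ligand of the integrin (gene ID 14268, chromosome 1, 71585473 to 71653280), read 5.34, 3.75 and 7.63 CPM in WT and 45.8, 23.9 and 46.6 CPM in TG. TG2 was the lowest of the TG libraries for Fn1 and still above all WT (log2 difference 2.80 ± 0.30, adjusted p = 0.00203, and 2.66, adjusted p = 0.00238 without TG1).

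Fkbp11, a proline isomerase of the secretory pathway (gene ID 66120, chromosome 15, 98724368 to 98728198), read 4.16, 4.7 and 4.37 CPM in WT and 17.4, 16.8 and 14.1 CPM in TG, with little spread in either genotype (log2 difference 1.87 ± 0.15, adjusted p = 0.000774). Rbp4, the carrier of retinol in plasma (gene ID 19662, chromosome 19, 38116620 to 38125321), rose alongside, at 3.81, 2.92 and 4.31 CPM in WT and 15.6, 17.3 and 13 CPM in TG (log2 difference 2.06 ± 0.28, adjusted p = 0.00699). Hbb-bs, an adult beta globin, read 130.3, 104 and 75 CPM in WT and 216, 166 and 253 CPM in TG (log2 difference 1.04 ± 0.38, adjusted p = 0.158).

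Among the falls, Cyp4b1, a cytochrome P450 (gene ID 13120, chromosome 4, 115624698 to 115647721), read 64, 33.2 and 56.9 CPM in WT and 4.47, 6.79 and 6.89 CPM in TG (log2 difference -3.08 ± 0.28, adjusted p = 0.000956, and -2.91, adjusted p = 0.00103 without TG1). Slc37a2, an ER sugar-phosphate exchanger (gene ID 56857, chromosome 9, 37229149 to 37255738), read 262, 346 and 279 CPM in WT and 78.8, 49.3 and 49.7 CPM in TG. For Slc37a2, TG1 was the TG library nearest to WT, and the difference was larger without it (log2 difference -2.32 ± 0.29, adjusted p = 0.00421, and -2.58, adjusted p = 0.00197 without it). Sstr1, a somatostatin receptor (gene ID 20605, chromosome 12, 58211421 to 58216037), read 94.2, 104 and 114 CPM in WT and 31.7, 27.1 and 30.3 CPM in TG (log2 difference -1.81 ± 0.17, adjusted p = 0.000971). Low-level genes fell as well. Wnt8b, a Wnt ligand, read 2.23, 2.2 and 2.77 CPM in WT and 0.417, 0.472 and 0.186 CPM in TG, and Klk15, a kallikrein protease, read 3.58, 3.99 and 3.63 CPM in WT and 0.656, 0.768 and 0.558 CPM in TG, with adjusted p = 0.00464 and 0.00328.

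**Figure D3:**
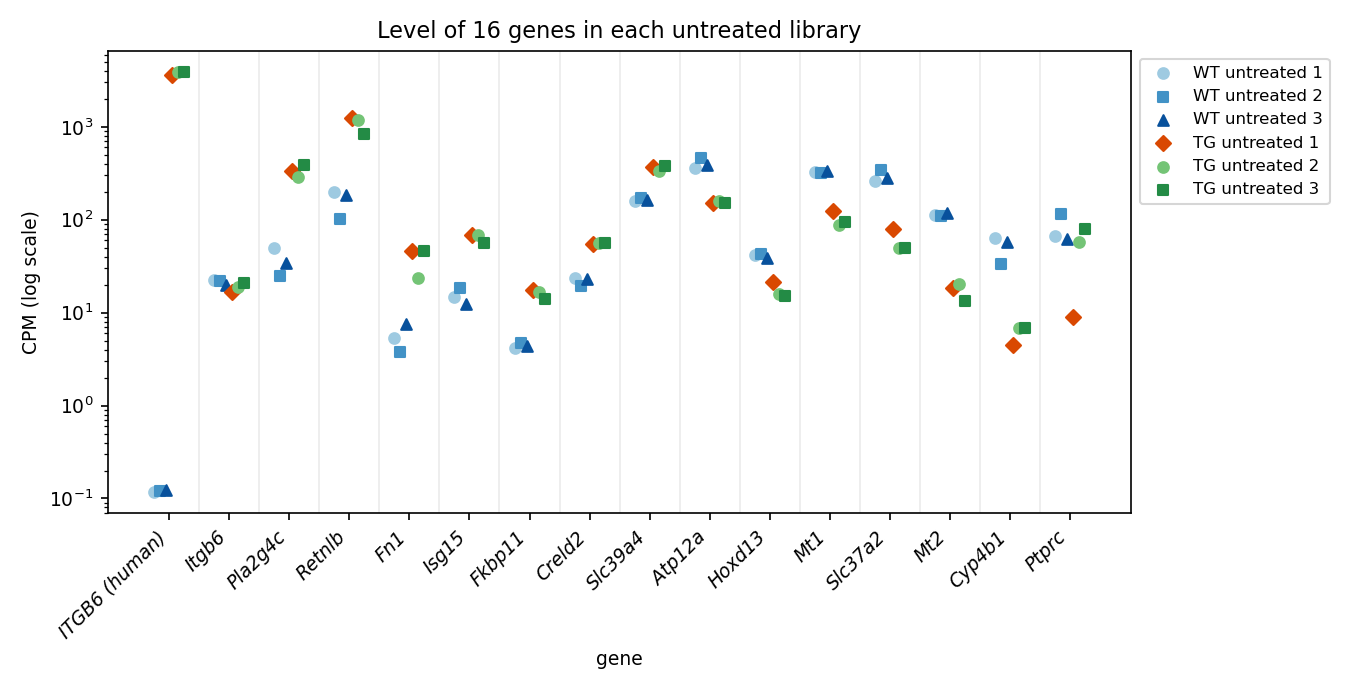
CPM on a log axis of 16 genes in each of the 6 untreated libraries, 1 point per library. TG1 (orange diamonds) lies on the same side of the WT libraries as TG2 and TG3 for every gene that passed the test, as holds for all genes past the threshold. It stands apart for Ptprc, at 8.94 CPM against 56.9 to 113.9 CPM in the others.

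Several further large rises rested on more scattered libraries. Reg3b and Reg3g, antimicrobial lectins of the epithelium, read 256, 30.5 and 132 CPM in WT and 2405, 830.2 and 1263 CPM in TG, and 83.5, 18.7 and 37 CPM in WT and 421, 173 and 291 CPM in TG, respectively. WT2 was the lowest library of both (3.42 ± 0.66, adjusted p = 0.0239 for Reg3b and 2.67 ± 0.51, adjusted p = 0.0228 for Reg3g). TG1 was the highest library of both, and the differences were smaller without it (2.91, adjusted p = 0.0268 for Reg3b and 2.32, adjusted p = 0.027 for Reg3g). The Reg3b call ended without WT3 (0.114), TG2 (0.0503) or TG3 (0.0519), and the Reg3g call without WT2 (0.0798), WT3 (0.114) or TG3 (0.0557). C7, a terminal complement component, read 0.0587, 0 and 0.246 CPM in WT and 1.43, 3.19 and 2.17 CPM in TG (log2 difference 4.40 ± 0.70, adjusted p = 0.0154), and its call ended without WT1 (0.0727), WT2 (0.0634) or TG2 (0.054). Ces1c, a carboxylesterase, was among the 64 called genes that did not pass without TG1. It read 1.06, 0.476 and 0.8 CPM in WT and 7.93, 1.06 and 5.65 CPM in TG (log2 difference 2.64 ± 0.62, adjusted p = 0.0475, ended without WT1, WT2, WT3, TG1 or TG3 at adjusted p = 0.076 to 0.194, and 2.09, adjusted p = 0.076 without TG1). S100g, the vitamin D-dependent calcium binder calbindin, was another, falling from 38.7 to 124 CPM in WT to 13.8 to 35.2 CPM in TG (log2 difference -1.93 ± 0.43, adjusted p = 0.0394, ended without WT2, WT3, TG1 or TG3 at adjusted p = 0.0607 to 0.144, and -1.70, adjusted p = 0.0607 without it).

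Interferon response genes were higher in TG as a group. Of 30 tested, 21 rose and none fell, against 2.26% of all genes higher, and the median log2 difference was 1.26 (1.22 without TG1) against -0.016 over all genes. Type I and III interferons act through a complex that holds STAT2 and IRF9 on genes that block viral entry, copying and translation. The list's median difference from the WT mean was 1.31, 1.25 and 1.23 in TG1, TG2 and TG3, close to each other. The count of rises was 4, 7 and 2 without WT1, WT2 and WT3, and 23, 8 and 10 without TG1, TG2 and TG3. With the GC content and length offset it was 25.

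Isg15, a ubiquitin-like modifier (gene ID 100038882, chromosome 4, 156199424 to 156200818), read 14.8, 18.5 and 12.4 CPM in WT and 69.2, 68.3 and 56.1 CPM in TG (log2 difference 2.08 ± 0.24, adjusted p = 0.00322, and 2.03, adjusted p = 0.00341 without TG1). Bst2, tetherin, which holds budding virus at the cell surface (gene ID 69550, chromosome 8, 71534255 to 71537472), read 12.8, 13.4 and 13.7 CPM in WT and 51.1, 46.8 and 38.1 CPM in TG (log2 difference 1.77 ± 0.17, adjusted p = 0.00119). Usp18, the protease that removes ISG15 and damps interferon receptors, read 4.63, 5.42 and 3.44 CPM in WT and 28.5, 25.3 and 22.5 CPM in TG (log2 difference 2.50 ± 0.36, adjusted p = 0.00845). The groups of all 3 genes were far apart relative to the spread within them. Isg15 and Bst2 passed in all 6 fits without 1 untreated library, and Usp18 in all but that without WT3 (0.0515). The 2'-5' oligoadenylate synthetase genes Oas1a, Oas1g, Oas2, Oas3, Oasl1 and Oasl2 rose by 0.79 to 1.89 on the log2 scale, as did Mx1 (1.53) and Mx2 (2.08), the myxovirus resistance GTPases. None of these calls but that of Mx2 ended without TG1 (0.0626), and all ended without WT3, at adjusted p = 0.05 for Oasl1 to 0.169 for Mx2. Without TG2 the calls of Oas1g, Oas2, Oas3, Mx1 and Mx2 ended, at adjusted p = 0.055 to 0.114. Those of Oas1a, Oas1g, Oas2, Oas3, Mx1 and Mx2 also ended without WT1 and without WT2, Oasl2 without WT1 (0.0678), and Oas1g, Oas3, Mx1 and Mx2 without TG3, at adjusted p = 0.05 to 0.153. Ifit1, which binds foreign RNA caps, read 17.9, 24.2 and 17.8 CPM in WT and 40.7, 99.2 and 72.3 CPM in TG, and TG1 was its lowest TG library (log2 difference 1.82 ± 0.36, adjusted p = 0.0253, ended without WT1, WT2, WT3, TG2 or TG3 at adjusted p = 0.0631 to 0.118). The signal carriers Stat2 and Irf9 did not pass; they had log2 differences of 0.64 and 0.56.

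Genes induced mainly by interferon gamma gave few calls. Of 16 interferon-induced GTPases, which coat vacuoles of intracellular pathogens, 1 rose and none fell, with a median of -0.22 (0.02 without TG1). Irgm1 read 50.9, 62.7 and 42.9 CPM in WT and 86.5, 96.5 and 96.5 CPM in TG (log2 difference 0.84 ± 0.17, adjusted p = 0.0253), and its call ended without WT1 (0.103), WT3 (0.117), TG2 (0.0889) or TG3 (0.0688). Gbp2 read 17.2, 49.6 and 11.1 CPM in WT and 9.48, 17.5 and 14.5 CPM in TG and was not past the threshold (log2 difference -0.91 ± 0.51, adjusted p = 0.335). None of 20 MHC class I and immunoproteasome genes passed in either direction (0 by edgeR, 1 at an unadjusted p under 0.05, 0 by DESeq2), with B2m at 388, 622 and 357 CPM in WT and 496, 520.3 and 530.4 CPM in TG. Ifng, interferon gamma itself, fell, at 3.52, 7.14 and 3.57 CPM in WT and 0.477, 0.768 and 1.18 CPM in TG (log2 difference -2.55 ± 0.40, adjusted p = 0.0131, and -2.28, adjusted p = 0.0164 without TG1). That call ended without TG2 (0.055). Of the interferon-induced GTPases, 5 were among the 837 genes low in TG1, and of the interferon response list none.

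MHC class II presentation varied widely within each genotype. Cd74, the invariant chain, read 198, 877 and 145 CPM in WT and 30.3, 45.2 and 132 CPM in TG, and H2-Aa, an MHC class II chain, 46.2, 272 and 44.3 CPM in WT and 7.39, 17.4 and 33.9 CPM in TG. WT2 was the highest library of both and TG1 the lowest. Every TG library lay below every WT library for both genes, but neither passed (log2 difference -2.55 ± 0.70, adjusted p = 0.0775, and log2 difference -2.63 ± 0.74, adjusted p = 0.0822). H2-DMb1, which helps load peptide on class II, was the 1 of 11 to pass, at 16.2, 58.2 and 15.9 CPM in WT and 3.16, 6.32 and 5.77 CPM in TG (log2 difference -2.57 ± 0.50, adjusted p = 0.0239, and -2.32, adjusted p = 0.0392 without TG1), a call that ended without TG2 (0.0765) or TG3 (0.065). The list's median was -1.61 (-1.20 without TG1). At an unadjusted p under 0.05 by edgeR the list counted 8 of 11 genes, and DESeq2 called 6. The TG libraries of 6 genes all lay below the WT libraries, where 32.0% of all tested genes did not overlap in either direction.

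Promoters are shown so that interferon genes that rose can be compared base for base with Gbp2, which did not pass. The interferon-stimulated response element was searched as GAAANNGAAA on both strands, from 250 bases before to 50 after each RefSeq gene start (GRCm38.p6), where it occurs in 3.44% of promoters and in 3.86% of tested genes with a promoter in the table. It was present in 7 of 13 interferon response genes that rose and in 6 of 8 that did not pass, and in 8 of 9 interferon-induced GTPases that did not pass. A match is a description of letters, not of a working site. The 150 bases before the start, as the promoter table places it, follow, 5′ to 3′ on the gene's strand, with every match in capitals, for 3 genes that rose (Isg15, Bst2 and Irgm1) and for Gbp2, which did not pass. The windows are chr4:156200819-156200968 (minus strand) for Isg15, chr8:71537473-71537622 (minus strand) for Bst2, chr11:48871421-48871570 (minus strand) for Irgm1 and chr3:142620513-142620662 (plus strand) for Gbp2.
Isg15: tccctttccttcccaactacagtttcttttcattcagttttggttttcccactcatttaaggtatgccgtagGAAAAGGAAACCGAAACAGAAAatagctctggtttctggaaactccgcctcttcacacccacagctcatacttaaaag
Bst2: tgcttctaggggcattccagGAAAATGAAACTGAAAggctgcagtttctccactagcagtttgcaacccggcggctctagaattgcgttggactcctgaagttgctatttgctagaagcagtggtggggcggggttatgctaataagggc
Irgm1: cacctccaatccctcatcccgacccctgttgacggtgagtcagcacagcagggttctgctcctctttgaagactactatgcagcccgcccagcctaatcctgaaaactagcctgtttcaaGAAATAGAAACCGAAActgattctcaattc
Gbp2: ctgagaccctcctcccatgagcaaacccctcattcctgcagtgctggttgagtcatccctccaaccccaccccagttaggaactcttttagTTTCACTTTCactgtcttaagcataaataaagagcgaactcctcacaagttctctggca

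Chaperones and folding enzymes of the ER were higher in TG. Of 27 genes of the unfolded protein response and ER folding, 14 rose and none fell, against 2.26% of all genes higher, with all 27 differences above 0 and a median of 0.61 (0.65 without TG1). When unfolded protein builds up in the ER, the sensors IRE1, ATF6 and PERK raise chaperones, widen export and slow translation. Without TG1, 19 of the 27 passed. Over the 6 fits the count was 8, 6 and 5 without WT1, WT2 and WT3, and 19, 9 and 11 without TG1, TG2 and TG3.

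Creld2, an ER-resident protein induced by ER stress (gene ID 76737, chromosome 15, 88819646 to 88826681), read 23.9, 19.5 and 23.2 CPM in WT and 54.3, 56.3 and 56.5 CPM in TG (log2 difference 1.33 ± 0.12, adjusted p = 0.000956, and 1.35, adjusted p = 0.000744 without TG1). Hyou1, a large ER chaperone (gene ID 12282, chromosome 9, 44379490 to 44392369), read 89.3, 74 and 91.7 CPM in WT and 205, 196 and 187 CPM in TG (log2 difference 1.21 ± 0.12, adjusted p = 0.00119). Manf, a secreted ER stress protein (gene ID 74840, chromosome 9, 106888753 to 106891938), read 65, 52.2 and 61.4 CPM in WT and 127, 144 and 128 CPM in TG (log2 difference 1.16 ± 0.11, adjusted p = 0.000971). In each every TG library lay above every WT library. TG1 was the lowest TG library of Creld2 and Manf and the highest of Hyou1. Sdf2l1 and the disulfide isomerase Pdia6 differed by 1.23 and 1.06 on the log2 scale, and these 5 genes passed in all 6 fits. Hspa5, the chaperone BiP, read 589.9, 575 and 573 CPM in WT and 760.3, 1050 and 1220 CPM in TG, with TG1 nearest to WT (log2 difference 0.80 ± 0.15, adjusted p = 0.0228, ended without WT1, WT2, WT3, TG2 or TG3 at adjusted p = 0.0622 to 0.115, and 0.97, adjusted p = 0.00176 without it). Xbp1, the transcription factor spliced by IRE1, read 168, 139 and 156 CPM in WT and 272, 265 and 236 CPM in TG (log2 difference 0.74 ± 0.12, adjusted p = 0.0145, ended without WT2, WT3 or TG2 at adjusted p = 0.052 to 0.0807). Genes of the PERK arm did not pass: the log2 difference was 0.14 for Atf4, 0.26 for Ddit3 and 1.04 for Trib3 (adjusted p not under 0.05 for any).

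The translocation and glycosylation machinery that feeds the ER rose by smaller and more even amounts. Of 26 genes, 18 rose and none fell, against 2.26% of all genes higher. The median was 0.56 (0.55 without TG1), with differences of 0.39 to 1.18 among those that rose. Sec61a1, the pore of the translocon, read 216, 198 and 214 CPM in WT and 379, 317 and 301 CPM in TG (log2 difference 0.67 ± 0.12, adjusted p = 0.0173, ended without WT1, WT2 or WT3 at adjusted p = 0.0663 to 0.0924). Rpn1, a subunit of the oligosaccharide transferase, read 244, 217 and 249 CPM in WT and 425, 417 and 353 CPM in TG (log2 difference 0.75 ± 0.12, adjusted p = 0.0131, ended without WT1, WT2 or WT3 at adjusted p = 0.055 to 0.0782). Kdelr3, which returns ER residents from the Golgi, read 12.7, 9.94 and 14.4 CPM in WT and 28.9, 34 and 20.7 CPM in TG (log2 difference 1.18 ± 0.22, adjusted p = 0.0205, ended without WT1, WT2, WT3 or TG2 at adjusted p = 0.0665 to 0.0988). In all 3 genes every TG library lay above every WT library. The count was 1, 0 and 0 without WT1, WT2 and WT3, and 19, 2 and 13 without TG1, TG2 and TG3.

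The ER stress element, searched as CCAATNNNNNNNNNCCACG on both strands, occurs in 0.12% of RefSeq promoters and in 0.18% of tested genes with a promoter in the table. It was present in 6 of 12 unfolded protein response genes that rose, in 4 of 13 that did not pass, and in none of 14 translocation and glycosylation genes that rose. The 150 bases before the start are shown in the same way for Creld2, Pdia6 and Hspa5, which rose, and for the lectin chaperone Canx, which did not pass with all libraries (log2 difference 0.20, adjusted p = 0.621) and did without TG1 (0.46, adjusted p = 0.0207). In Creld2 the match lies on the opposite strand. The windows are chr15:88819496-88819645 (plus strand) for Creld2, chr12:17266439-17266588 (plus strand) for Pdia6, chr2:34771940-34772089 (plus strand) for Hspa5 and chr11:50325674-50325823 (minus strand) for Canx.
Creld2: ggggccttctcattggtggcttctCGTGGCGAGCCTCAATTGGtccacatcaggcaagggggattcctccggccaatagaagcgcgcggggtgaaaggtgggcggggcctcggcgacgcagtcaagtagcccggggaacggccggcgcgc
Pdia6: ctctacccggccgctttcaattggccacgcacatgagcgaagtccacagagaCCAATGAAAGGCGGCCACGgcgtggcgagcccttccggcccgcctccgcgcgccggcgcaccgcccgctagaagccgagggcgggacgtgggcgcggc
Hspa5: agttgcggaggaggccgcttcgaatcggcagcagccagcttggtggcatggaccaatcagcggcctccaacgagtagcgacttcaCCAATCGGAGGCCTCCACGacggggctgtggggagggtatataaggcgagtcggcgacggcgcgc
Canx: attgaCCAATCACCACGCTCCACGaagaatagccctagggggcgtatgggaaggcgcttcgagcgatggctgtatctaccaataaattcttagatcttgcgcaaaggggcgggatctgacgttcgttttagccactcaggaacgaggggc

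Of 17 cytosolic heat shock genes, 7 were higher, against 2.26% of all genes, and none lower, with a median of 0.71 (0.75 without TG1). These proteins refold client proteins outside the ER under the control of HSF1. Hspa8, the constitutive HSC70 chaperone, read 2012, 2104 and 2094 CPM in WT and 3521, 3594 and 3700 CPM in TG (log2 difference 0.80 ± 0.11, adjusted p = 0.00699, ended without WT3 at adjusted p = 0.0509). Hsph1, a nucleotide exchange factor of HSP70, read 35.1, 46.1 and 45.3 CPM in WT and 109, 210.3 and 249 CPM in TG, with TG1 the lowest of the TG libraries (log2 difference 2.17 ± 0.32, adjusted p = 0.00919, ended without WT1 or WT3 at adjusted p = 0.0524 to 0.0531, and 2.45, adjusted p = 0.000974 without it). Stip1, which links HSP70 to HSP90, read 74.3, 71.8 and 71.7 CPM in WT and 133, 162 and 167 CPM in TG (log2 difference 1.08 ± 0.17, adjusted p = 0.0139, ended without WT1, WT2, WT3 or TG2 at adjusted p = 0.054 to 0.0782). The strongly inducible Hspa1a and Hspa1b did not pass, at 0.22 and 0.51. The count of rises was 1, 2 and 0 without WT1, WT2 and WT3, and 10, 3 and 3 without TG1, TG2 and TG3.

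Genes of goblet cells and of mucosal defence rose in part. Of 21 goblet cell genes, 8 rose and none fell, with a median of 0.57 (0.55 without TG1). Of 20 antimicrobial and mucosal defence genes 8 rose, with a median of 0.93 (0.73 without TG1). Over all genes 2.26% were higher. Bhlha15, a transcription factor that builds the secretory apparatus (gene ID 17341, chromosome 5, 144190286 to 144194441), read 2.64, 1.78 and 1.85 CPM in WT and 12.9, 16.2 and 11.2 CPM in TG (log2 difference 2.68 ± 0.27, adjusted p = 0.0015). Spink4, a goblet cell protease inhibitor, read 205, 130.0 and 172 CPM in WT and 571, 589.7 and 442 CPM in TG (log2 difference 1.66 ± 0.19, adjusted p = 0.00322). Spdef and Atoh1, transcription factors of the secretory lineage, differed by 1.34 and 0.56 on the log2 scale (adjusted p = 0.0139 and 0.0245). The Spdef call ended without WT2 or WT3 at adjusted p = 0.0513 to 0.0665, and the Atoh1 call ended without WT1, WT2, WT3 or TG2 at adjusted p = 0.0648 to 0.127. Agr2, a disulfide isomerase needed for mucin folding, read 489.6, 357 and 539.5 CPM in WT and 870.3, 1603 and 1035 CPM in TG, highest in TG2 (log2 difference 1.34 ± 0.25, adjusted p = 0.0205, ended without WT1, WT2, WT3 or TG2 at adjusted p = 0.062 to 0.0992).

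The bulk products of goblet cells did not pass. Muc2, the main gel-forming mucin, read 7004, 3326 and 4396 CPM in WT and 9625, 3513 and 8741 CPM in TG (log2 difference 0.57 ± 0.38, adjusted p = 0.405), and TG2 lay within the WT range. Clca1, a mucus-processing protease, read 6433, 1930 and 3064 CPM in WT and 13330, 12720 and 11960 CPM in TG. WT spanned more than 3-fold for Clca1, with WT1 highest, and although all TG libraries were above it the gene missed the threshold (log2 difference 1.73 ± 0.45, adjusted p = 0.0634). Ang4, an angiogenin-family ribonuclease of secretory cells, did rise, at 367, 116 and 215 CPM in WT and 1245, 1245 and 1156 CPM in TG (log2 difference 2.38 ± 0.39, adjusted p = 0.0143, ended without WT3 or TG2 at adjusted p = 0.0503 to 0.0741). Duoxa2, the maturation factor of an epithelial oxidase, read 11.7, 13.1 and 8.86 CPM in WT and 24.3, 37.5 and 43.9 CPM in TG, and its partner Duox2 71.6, 71.4 and 69.1 CPM in WT and 119, 115 and 142 CPM in TG. Both rose, and TG1 was the lowest TG library of Duoxa2 (1.65 ± 0.22, adjusted p = 0.00585 for Duoxa2, 0.82 ± 0.13, adjusted p = 0.0114, ended without WT1, WT2 or WT3 at adjusted p = 0.054 to 0.0665 for Duox2). The goblet cell count was 5, 2 and 2 without WT1, WT2 and WT3, and 6, 3 and 5 without TG1, TG2 and TG3. For the antimicrobial list it was 6, 5 and 2 without WT1, WT2 and WT3, and 8, 6 and 6 without TG1, TG2 and TG3.

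Of other epithelial lineages, none of 19 enteroendocrine genes, 14 tuft cell genes, 18 stem cell and Wnt target genes or 24 proliferation genes passed with all libraries by edgeR. At an unadjusted p under 0.05 they counted 2, 2, 5 and 2, and DESeq2 called 1, 1, 0 and 0. Chga, a granule protein of hormone cells, read 90.7, 59.8 and 81.8 CPM in WT and 77, 73.9 and 80.2 CPM in TG. All 24 differences of the proliferation list were above 0, and the median was 0.49 (0.46 without TG1). The groups of 17 of its genes did not overlap, against 32.0% of all tested genes in either direction. Mki67, a marker of dividing cells, stood apart from that pattern in TG1. It read 116, 113 and 123 CPM in WT and 44.4, 159 and 174 CPM in TG, with TG1 below all others and TG2 and TG3 above all WT (log2 difference 0.10 ± 0.43, adjusted p = 0.913, and 0.51, adjusted p = 0.295 without TG1). Without TG1 a single tuft cell list member passed, Cd24a, at 314, 235 and 330.0 CPM in WT and 368, 705 and 436 CPM in TG (0.96, adjusted p = 0.0238).

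Genes of absorptive cells gave falls. Of 20 small intestinal absorption genes, 4 fell and none rose, against 1.44% of all genes lower, with a median of -0.79 (-0.61 without TG1). Of 26 colonocyte ion and water transport genes, 3 fell and none rose, with a median of -0.28 (-0.26 without TG1). Cubn, the receptor for intrinsic factor and vitamin B12 (gene ID 65969, chromosome 2, 13276338 to 13491876), read 14.4, 13.7 and 9.6 CPM in WT and 2.98, 3.07 and 4.09 CPM in TG (log2 difference -1.89 ± 0.23, adjusted p = 0.00421, and -1.81, adjusted p = 0.00665 without TG1). Slc15a1, the peptide transporter PEPT1, read 60.9, 62.1 and 62.8 CPM in WT and 27.2, 34.7 and 37 CPM in TG (log2 difference -0.91 ± 0.15, adjusted p = 0.0139, ended without WT2 or WT3 at adjusted p = 0.0631 to 0.0665). Enpep, a brush border aminopeptidase, and Rbp2, the intracellular retinol carrier, fell by 1.48 and 0.90. The Enpep call ended without WT1, WT2, WT3 or TG2 at adjusted p = 0.05 to 0.0782, and the Rbp2 call ended without WT1, WT2, WT3, TG2 or TG3 at adjusted p = 0.0751 to 0.117.

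Atp12a, the non-gastric proton-potassium pump of the distal colon (gene ID 192113, chromosome 14, 56364669 to 56388551), read 357, 458 and 385 CPM in WT and 153, 159 and 152 CPM in TG, and the 3 TG libraries nearly coincided (log2 difference -1.37 ± 0.14, adjusted p = 0.00159). Fxyd4, a regulator of the sodium pump (gene ID 108017, chromosome 6, 117933558 to 117937714), read 25.5, 19 and 33.9 CPM in WT and 7.16, 4.25 and 3.1 CPM in TG, with TG1 nearest to WT (log2 difference -2.43 ± 0.35, adjusted p = 0.00824, and -2.82, adjusted p = 0.00304 without it). Car4, a membrane carbonic anhydrase, read 569, 564 and 550.0 CPM in WT and 269, 325 and 387 CPM in TG (log2 difference -0.78 ± 0.14, adjusted p = 0.0175, ended without WT1, WT2, WT3 or TG2 at adjusted p = 0.0634 to 0.0802). Car1, far more abundant, was lowest in TG1 at 4430 CPM and did not pass (log2 difference -0.36 ± 0.27, adjusted p = 0.454). The absorption count was 2, 1 and 1 without WT1, WT2 and WT3, and 4, 2 and 3 without TG1, TG2 and TG3, and the ion transport count 2, 2 and 3 without WT1, WT2 and WT3, and 3, 2 and 3 without TG1, TG2 and TG3. After the GC content and length offset, 6 and 7 genes of these lists were lower.

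Among 17 transcription factors that pattern the gut, 2 HoxD genes fell and none rose. Hoxd13, the most distal of the cluster (gene ID 15433, chromosome 2, 74668225 to 74671603), read 41.9, 42.5 and 39.2 CPM in WT and 21.1, 15.8 and 14.9 CPM in TG (log2 difference -1.25 ± 0.17, adjusted p = 0.0071, and -1.42, adjusted p = 0.00215 without TG1). Hoxd10 read 3.46, 4.29 and 2.95 CPM in WT and 1.25, 1 and 1.8 CPM in TG, a low level (log2 difference -1.40 ± 0.31, adjusted p = 0.0361), and its call ended without WT1 (0.0978), WT2 (0.142), WT3 (0.0935), TG1 (0.0549) or TG2 (0.123). Hoxd12, at 3.81, 4.11 and 2.65 CPM in WT and 2.8, 1.06 and 0.869 CPM in TG, passed only after TG1 was left out (-1.86, adjusted p = 0.0116).

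Zinc and metal handling genes changed in both directions. Mt1 and Mt2, the metallothioneins that buffer zinc and copper, fell, and Mt3 beside them on chromosome 8 rose, the 1 run of at least 3 neighbouring genes past the threshold in the genome. Mt2 (gene ID 17750, chromosome 8, 94172618 to 94173567) read 114, 109 and 117 CPM in WT and 18.5, 20.1 and 13.3 CPM in TG (log2 difference -2.71 ± 0.15, adjusted p = 2.44e-05, and -2.76, adjusted p = 4.42e-05 without TG1). Mt1 (gene ID 17748, chromosome 8, 94178883 to 94180327) read 324, 321 and 334 CPM in WT and 125, 88.8 and 94.5 CPM in TG (log2 difference -1.67 ± 0.16, adjusted p = 0.000971, and -1.83, adjusted p = 0.000333 without TG1). Both passed in all 6 fits. Mt3 (gene ID 17751, chromosome 8, 94152607 to 94154148) read 1.82, 1.43 and 3.69 CPM in WT and 7.63, 10.1 and 5.83 CPM in TG, a low level (log2 difference 1.77 ± 0.37, adjusted p = 0.0298), and its call ended without WT1 (0.121), WT2 (0.122) or TG2 (0.11). Slc39a4, the zinc importer ZIP4 of the apical membrane (gene ID 72027, chromosome 15, 76612383 to 76618506), rose, at 158, 172 and 165 CPM in WT and 366, 333 and 375 CPM in TG (log2 difference 1.12 ± 0.12, adjusted p = 0.00191, and 1.10, adjusted p = 0.00214 without TG1). The zinc exporter Slc30a1 did not pass (log2 difference 0.01, adjusted p = 0.957), nor did the metal sensor Mtf1 (0.01). Of the 18 genes of this list, 2 rose and 2 fell. Its rises numbered 1, 1 and 2 without WT1, WT2 and WT3, and 3, 1 and 2 without TG1, TG2 and TG3, and both falls held in each of these fits.

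The promoters of both fallen metallothioneins are shown for the metal response core that MTF1 is known to bind, searched as TGCACNC or TGCGCNC on both strands. These short letters are common, in 25.7% of RefSeq promoters and 39.2% of tested genes with a promoter in the table, and they occur in 7 of 13 list members that did not pass. The 150 bases before the start hold 1 match in Mt1 and 2 in Mt2, in capitals. The whole promoters hold 3 and 4. The table places the start of Mt1 inside the gene span given above, so its window lies within that span. The windows are chr8:94178939-94179088 (plus strand) for Mt1 and chr8:94172468-94172617 (plus strand) for Mt2.
Mt1: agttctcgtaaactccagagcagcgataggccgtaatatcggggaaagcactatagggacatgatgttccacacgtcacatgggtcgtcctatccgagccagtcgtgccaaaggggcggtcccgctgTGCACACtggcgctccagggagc
Mt2: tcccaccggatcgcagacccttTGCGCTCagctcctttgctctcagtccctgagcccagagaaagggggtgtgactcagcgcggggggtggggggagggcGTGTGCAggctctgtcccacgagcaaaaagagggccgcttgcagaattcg

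Lipases and phospholipases A2, which release fatty acids from lipids, counted 6 rises and 1 fall in 25 genes. Over all genes 2.26% were higher and 1.44% lower. Beside Pla2g4c, the rises were the secreted enzymes Pla2g2f, Pla2g3 and Pla2g5, Pla2g16 and the pancreatic lipase relative Pnliprp2. Pnliprp2 (gene ID 18947, chromosome 19, 58759723 to 58777534) read 8.91, 2.8 and 6.09 CPM in WT and 73.8, 34.8 and 57.8 CPM in TG, with WT2 lowest in WT and TG2 lowest in TG (log2 difference 3.22 ± 0.38, adjusted p = 0.00328). Pla2g5 read 11.6, 7.44 and 8.67 CPM in WT and 24.5, 17.5 and 16.1 CPM in TG (log2 difference 1.07 ± 0.21, adjusted p = 0.0228, ended without WT2, WT3 or TG2 at adjusted p = 0.062 to 0.11) and Pla2g2f 30.1, 23.1 and 26.4 CPM in WT and 51.6, 51.9 and 40.8 CPM in TG (log2 difference 0.86 ± 0.16, adjusted p = 0.0228, ended without WT1, WT2, WT3 or TG2 at adjusted p = 0.0617 to 0.112). The Pla2g16 call ended without WT1, WT2, WT3, TG2 or TG3 at adjusted p = 0.0531 to 0.187. Pla2g3 was the 1 member whose call ended without TG1 (log2 difference 0.86 ± 0.21, adjusted p = 0.0496, ended without WT1, WT2, WT3, TG1, TG2 or TG3 at adjusted p = 0.0718 to 0.166, and 0.75, adjusted p = 0.0718 without it). The carboxylesterase Ces1g fell, at 138, 156 and 149.9 CPM in WT and 73.5, 68.7 and 74 CPM in TG (log2 difference -1.04 ± 0.22, adjusted p = 0.0344, ended without WT1, WT2, WT3, TG2 or TG3 at adjusted p = 0.0818 to 0.119). The count of rises was 3, 2 and 2 without WT1, WT2 and WT3, and 5, 2 and 4 without TG1, TG2 and TG3.

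Detoxification enzymes gave few calls by edgeR, where 2.26% of all genes were higher and 1.44% lower. Of 25 cytochrome P450 genes, 2 fell, Cyp4b1 and Cyp27a1, and none rose. However, 22 of the 25 differences were below 0, and the median was -0.46 (-0.47 without TG1). At an unadjusted p under 0.05 by edgeR the P450 list counted 13 genes, and DESeq2 called 6. All TG libraries lay below WT for 14 genes and above for 1, where 32.0% of all tested genes did not overlap in either direction. Cyp27a1, which oxidises cholesterol side chains, read 17.2, 18.8 and 22.3 CPM in WT and 10.7, 7.91 and 7.26 CPM in TG (log2 difference -1.17 ± 0.20, adjusted p = 0.0167, ended without WT2, WT3, TG2 or TG3 at adjusted p = 0.0537 to 0.0706). Ugt1a1, a glucuronosyltransferase, and Gsta1, a glutathione transferase, were the 2 of 32 conjugating enzymes to pass, falling by 0.75 and 0.62. The Ugt1a1 call ended without WT1, WT2, WT3, TG2 or TG3 at adjusted p = 0.106 to 0.123, and the Gsta1 call ended without WT1, WT2, WT3 or TG2 at adjusted p = 0.0515 to 0.107. Of 21 antioxidant genes of the NRF2 pathway, Me1 rose and Aldh1a1 fell. The Me1 call ended without WT1, WT2, WT3 or TG3 at adjusted p = 0.0938 to 0.145, and the Aldh1a1 call ended without WT1, WT2, WT3 or TG2 at adjusted p = 0.0793 to 0.099. P450 falls numbered 2, 1 and 1 without WT1, WT2 and WT3, and 2, 1 and 1 without TG1, TG2 and TG3. In fatty acid oxidation 1 of 27 genes passed, Slc25a20, the carnitine carrier, at 237, 242 and 213 CPM in WT and 149.8, 135 and 162 CPM in TG (log2 difference -0.63 ± 0.13, adjusted p = 0.0277, ended without WT1, WT2, WT3, TG2 or TG3 at adjusted p = 0.0531 to 0.109), and in cholesterol synthesis 1 of 24, Fdps, a prenyl diphosphate synthase, at 122, 108 and 122 CPM in WT and 203, 173 and 169 CPM in TG (log2 difference 0.63 ± 0.13, adjusted p = 0.026, ended without WT1, WT2, WT3, TG2 or TG3 at adjusted p = 0.0527 to 0.128).

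Of 20 clock genes, 4 fell and none rose, against 1.44% of all genes lower, with a median of -0.31 (-0.32 without TG1). Per3, a repressor of the clock (gene ID 18628, chromosome 4, 150997018 to 151044707), read 62.2, 63.3 and 58.8 CPM in WT and 34.1, 28.2 and 26.2 CPM in TG (log2 difference -1.06 ± 0.14, adjusted p = 0.00553, and -1.17, adjusted p = 0.00162 without TG1). Cry2, another repressor (gene ID 12953, chromosome 2, 92403646 to 92434085), read 47.7, 44.8 and 42 CPM in WT and 26.1, 26 and 24.5 CPM in TG (log2 difference -0.81 ± 0.12, adjusted p = 0.0106). Tef, an output factor, fell by 0.53, a call that ended without WT1, WT2, WT3, TG2 or TG3 at adjusted p = 0.0798 to 0.109. The core drivers Arntl (0.13) and Clock (-0.27) did not pass. The labels give no time of collection. The falls numbered 2, 2 and 3 without WT1, WT2 and WT3, and 7, 2 and 2 without TG1, TG2 and TG3, and 7 with the GC content and length offset.

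Part of the matrix genes rose in TG, and TG1 differed from its fellows over them. Of 17 collagen genes, 6 rose, with a median of 0.75 (0.95 without TG1), and of 17 fibroblast genes 5 rose, with a median of 0.99 (1.32 without TG1). The lists share 4 of these genes, and 2.26% of all genes were higher. The fibroblast median difference from the WT mean was -0.34, 1.54 and 1.31 in TG1, TG2 and TG3, and the collagen median 0.17, 1.01 and 0.81. Col3a1, a fibrillar collagen, read 5.16, 8.39 and 12.1 CPM in WT and 13.8, 45.8 and 41.4 CPM in TG. TG1 lay just above the highest WT library and TG2 and TG3 at least 3 times above it (log2 difference 1.98 ± 0.42, adjusted p = 0.031, ended without WT1, WT2, WT3, TG2 or TG3 at adjusted p = 0.0737 to 0.129, and 2.35, adjusted p = 0.00162 without TG1). Col1a2 read 4.16, 3.45 and 8.12 CPM in WT and 11.3, 27 and 27.7 CPM in TG (log2 difference 2.07 ± 0.38, adjusted p = 0.0207, ended without WT1, WT2, TG2 or TG3 at adjusted p = 0.0595 to 0.0978, and 2.38, adjusted p = 0.00263 without TG1). Dpt, a dermatopontin of fibroblasts, read 0.821, 0.476 and 1.05 CPM in WT and 2.09, 5.55 and 3.54 CPM in TG (log2 difference 2.25 ± 0.47, adjusted p = 0.0297, ended without WT1, WT2, WT3, TG2 or TG3 at adjusted p = 0.0641 to 0.13, and 2.53, adjusted p = 0.0106 without TG1). These are low levels, and of the fibroblast list Grem1 was at 0 in every untreated library, with all collagens together at 55.8 to 76.0 CPM in WT and 69.0 to 147 CPM in TG.

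Collagen and fibroblast calls fell to 0 or 1 when any untreated library other than TG1 was left out. With the untreated libraries alone, 2 collagen and 3 fibroblast genes rose. For collagens the count was 1, 0 and 1 without WT1, WT2 and WT3, and 7, 0 and 0 without TG1, TG2 and TG3, and for fibroblast genes 1, 0 and 1 without WT1, WT2 and WT3, and 8, 0 and 0 without TG1, TG2 and TG3. Of 28 matrix glycoproteins, Fn1, Sparc and Fbln1 rose and Lama5, a laminin chain of the epithelial basement membrane, fell, at 18.1, 15.8 and 17.9 CPM in WT and 8.64, 8.8 and 9.06 CPM in TG (log2 difference -0.97 ± 0.15, adjusted p = 0.0119, ended without WT3 at adjusted p = 0.055). The Sparc call ended without WT1, WT2, WT3, TG2 or TG3 at adjusted p = 0.0808 to 0.121, and the Fbln1 call ended without WT1, WT2, WT3, TG2 or TG3 at adjusted p = 0.0673 to 0.128. Timp3 and Timp4, inhibitors of metalloproteinases, fell, and Mmp28, an epithelial metalloproteinase, rose. The Timp4 call ended without WT1, WT2, WT3, TG2 or TG3 at adjusted p = 0.0997 to 0.149. Timp3 read 14.4, 14.3 and 14.2 CPM in WT and 5.13, 6.91 and 6.51 CPM in TG (log2 difference -1.21 ± 0.18, adjusted p = 0.0106, ended without WT3 at adjusted p = 0.0509) and Mmp28 17.6, 15.1 and 15.6 CPM in WT and 26.8, 25.3 and 26.4 CPM in TG (log2 difference 0.70 ± 0.12, adjusted p = 0.0149, ended without WT2 or WT3 at adjusted p = 0.0778 to 0.0861). Other cell types of the wall did not pass: edgeR and DESeq2 called none of 6 smooth muscle genes, 3 endothelial genes or 4 glial and neuronal genes, which counted 1, 0 and 1 at an unadjusted p under 0.05.

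Integrins and the TGF-beta pathway, on which the transgene product is known to act, showed little by this test. None of 18 mouse integrin genes passed with all libraries (0 by edgeR, 5 at an unadjusted p under 0.05, 3 by DESeq2). Itgb4 and Itga6, which form the epithelial hemidesmosome integrin, read 422, 419 and 356 CPM in WT and 439.7, 292 and 377 CPM in TG, and 262, 255 and 253 CPM in WT and 275, 306 and 316 CPM in TG. Itgb1 read 237.7, 233 and 241 CPM in WT and 168, 283 and 284 CPM in TG, with TG1 lowest (log2 difference 0.05 ± 0.18, adjusted p = 0.903). Of 24 TGF-beta pathway genes and targets, 1 passed: Bambi, a decoy receptor induced by TGF-beta and Wnt, at 4.16, 2.68 and 4.25 CPM in WT and 9.06, 8.51 and 6.33 CPM in TG. That call ended in each of the 6 fits without 1 untreated library, the fit without TG1 included (adjusted p = 0.0592), after a log2 difference of 1.11 and adjusted p = 0.0399 with all libraries. Tgfb1 (log2 difference 0.03) and Smad7 (0.13) did not pass.

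Epidermal growth factor family genes gave 1 rise and 1 fall in 12. Areg, an epidermal growth factor receptor ligand of repairing epithelium, read 40.3, 37.5 and 32.6 CPM in WT and 78.8, 101 and 113 CPM in TG (log2 difference 1.41 ± 0.19, adjusted p = 0.0071, and 1.54, adjusted p = 0.00243 without TG1), a call that ended without WT3 (0.0508). Erbb3, a receptor of the family, fell, at 224, 253 and 242 CPM in WT and 191, 142 and 172 CPM in TG (log2 difference -0.51 ± 0.12, adjusted p = 0.0433, ended without WT1, WT2, WT3, TG2 or TG3 at adjusted p = 0.0833 to 0.147). Krt18, an epithelial keratin, and Cldn15, a claudin that forms cation pores, rose by 0.54 and 0.59 in a list of 22. The Krt18 call ended without WT1, WT2, WT3 or TG2 at adjusted p = 0.0598 to 0.109, and the Cldn15 call ended without WT1, WT2, WT3 or TG2 at adjusted p = 0.0673 to 0.103.

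Leukocyte genes gave no call by edgeR, with or without TG1, in 3 lists, of 18 pan-leukocyte, 23 T cell and 18 macrophage and dendritic cell genes. At an unadjusted p under 0.05 these lists counted 5, 8 and 2 genes, and DESeq2 called 1 in each. The median log2 difference was -0.69 (-0.33 without TG1) for the pan-leukocyte list and -0.68 (-0.37 without TG1) for the T cell list. The summed level of the pan-leukocyte list was 468, 813 and 448 CPM in WT and 183, 396 and 542 CPM in TG. TG1 was lowest and WT2 highest, and TG3 lay within WT. For the T cell list the sums were 462, 927 and 470 CPM in WT and 179 to 560 CPM in TG. Gzma, a killer cell protease, read 45, 99.1 and 48.3 CPM in WT and 12.6, 38.1 and 66.2 CPM in TG (log2 difference -0.72 ± 0.48, adjusted p = 0.413, and -0.30, adjusted p = 0.62 without TG1). Ccl5, a chemokine of killer cells, read 73.1, 172 and 83.1 CPM in WT and 27.7, 45.3 and 91.9 CPM in TG (adjusted p = 0.225, and 0.333 without TG1). No gene of the pan-leukocyte or T cell lists was at 0 in all untreated libraries. The part of leukocyte content in the other results was not tested.

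The B and plasma cell list gave 1 call, Derl3, an ER protein abundant in plasma cells that also stands in the unfolded protein list. Its call ended without WT1, WT2, WT3, TG2 or TG3 at adjusted p = 0.071 to 0.119. The B cell genes Cd79a and Cd22 were high in TG3 alone. Cd79a, the B cell receptor signalling chain, read 0.762, 1.13 and 0.984 CPM in WT and 0.358, 0.65 and 12.3 CPM in TG, and Cd22 0.587, 1.49 and 0.615 CPM in WT and 0.656, 0.472 and 7.82 CPM in TG, and neither passed (log2 difference 2.19 ± 1.04, adjusted p = 0.264, and log2 difference 1.72 ± 0.92, adjusted p = 0.314). Ly6g, in the neutrophil and mast cell list, fell, at 55.7, 72.1 and 59.2 CPM in WT and 23.5, 33.6 and 32.1 CPM in TG (log2 difference -1.07 ± 0.19, adjusted p = 0.017), and its call ended without WT2 (0.0807) or WT3 (0.0665). Of 21 cytokine and chemokine genes, Ifng and Il1rn, the interleukin 1 receptor antagonist, fell. The Il1rn call ended without WT1, WT2, WT3, TG2 or TG3 at adjusted p = 0.0644 to 0.122, and with the GC content and length offset at 0.218.

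**Figure D4:**
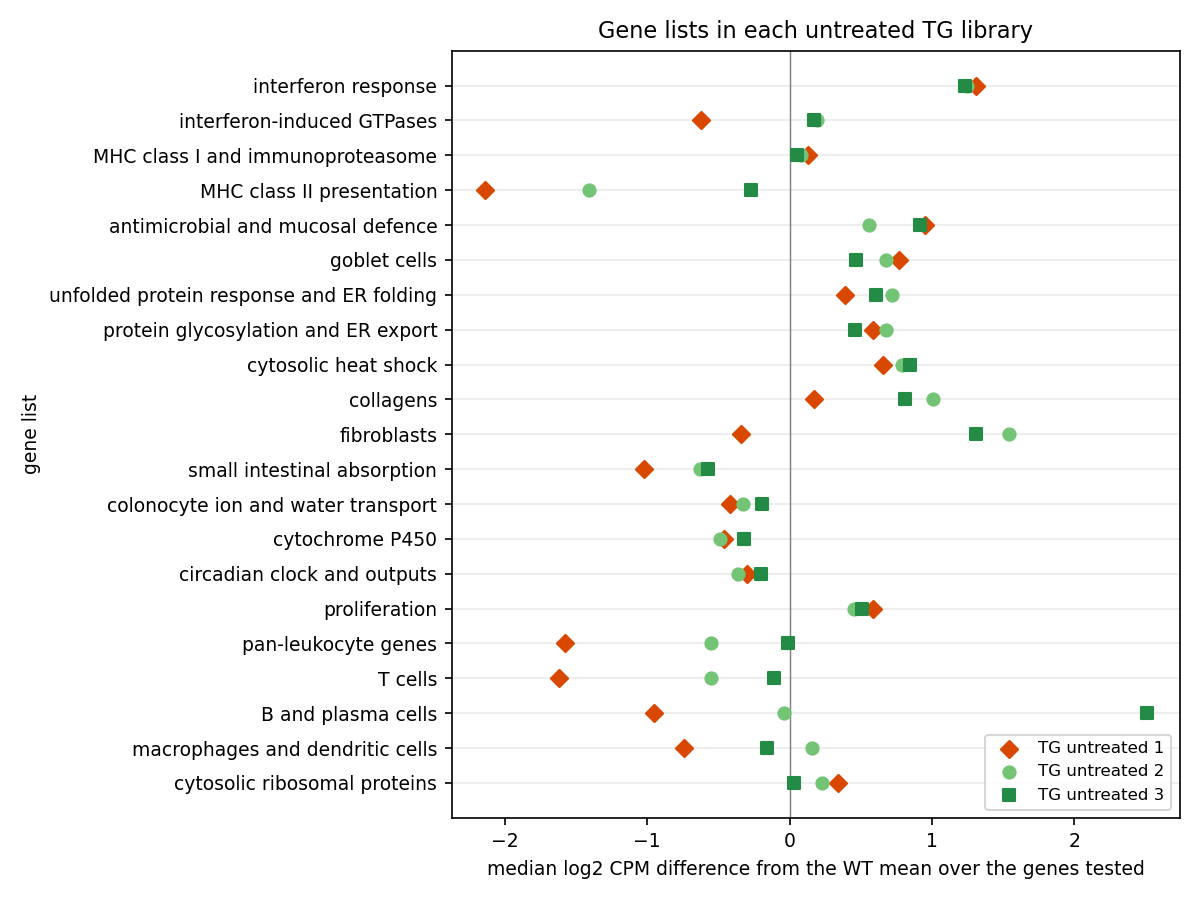
Median log2 CPM difference from the WT mean (horizontal axis) over the tested genes of 21 gene lists (vertical axis), 1 point for each untreated TG library. The 3 libraries lie close together for the interferon response (1.31, 1.25 and 1.23), while TG1 lies apart for fibroblasts (-0.34 against 1.54 and 1.31) and T cells (-1.62 against -0.55 and -0.11), and TG3 for B and plasma cells.

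General housekeeping groups gave no call. None of 30 oxidative phosphorylation genes or 30 cytosolic ribosomal protein genes passed by edgeR (0 and 4 at an unadjusted p under 0.05, 0 and 1 by DESeq2), with medians of 0.09 (0.01 without TG1) and 0.19 (0.11 without TG1). Rplp0, a ribosomal stalk protein, read 1827, 1817 and 1820 CPM in WT and 2516, 1885 and 1816 CPM in TG, highest in TG1. Of 13 complement genes edgeR called none (3 at an unadjusted p under 0.05, 1 by DESeq2). C7, named above, is not in that list, and Cd55, an inhibitor of complement in it, passed without TG1 (0.94, adjusted p = 0.00665) and with the GC content and length offset (adjusted p = 0.0117). Of 3 pancreatic acinar genes edgeR called none (1 at an unadjusted p under 0.05, 1 by DESeq2). Of 9 Paneth-type products Itln1, Ang4 and Pnliprp2 rose, and of 22 kallikreins and serine protease inhibitors Spink4 and Spink5 rose and Klk15 and Prss23 fell. The Itln1 call ended without WT3 at adjusted p = 0.0745, the Spink5 call ended without WT1, WT2, WT3, TG2 or TG3 at adjusted p = 0.0691 to 0.136, and the Prss23 call ended without WT1, WT2, WT3, TG2 or TG3 at adjusted p = 0.0627 to 0.142. Of 20 immediate early genes, 1 rose, Ier3, a survival factor, at 10.2, 14.1 and 12.7 CPM in WT and 20, 22.9 and 22.5 CPM in TG (log2 difference 0.82 ± 0.14, adjusted p = 0.0146, ended without WT1, WT3 or TG2 at adjusted p = 0.0598 to 0.0707).

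**Figure D5:**
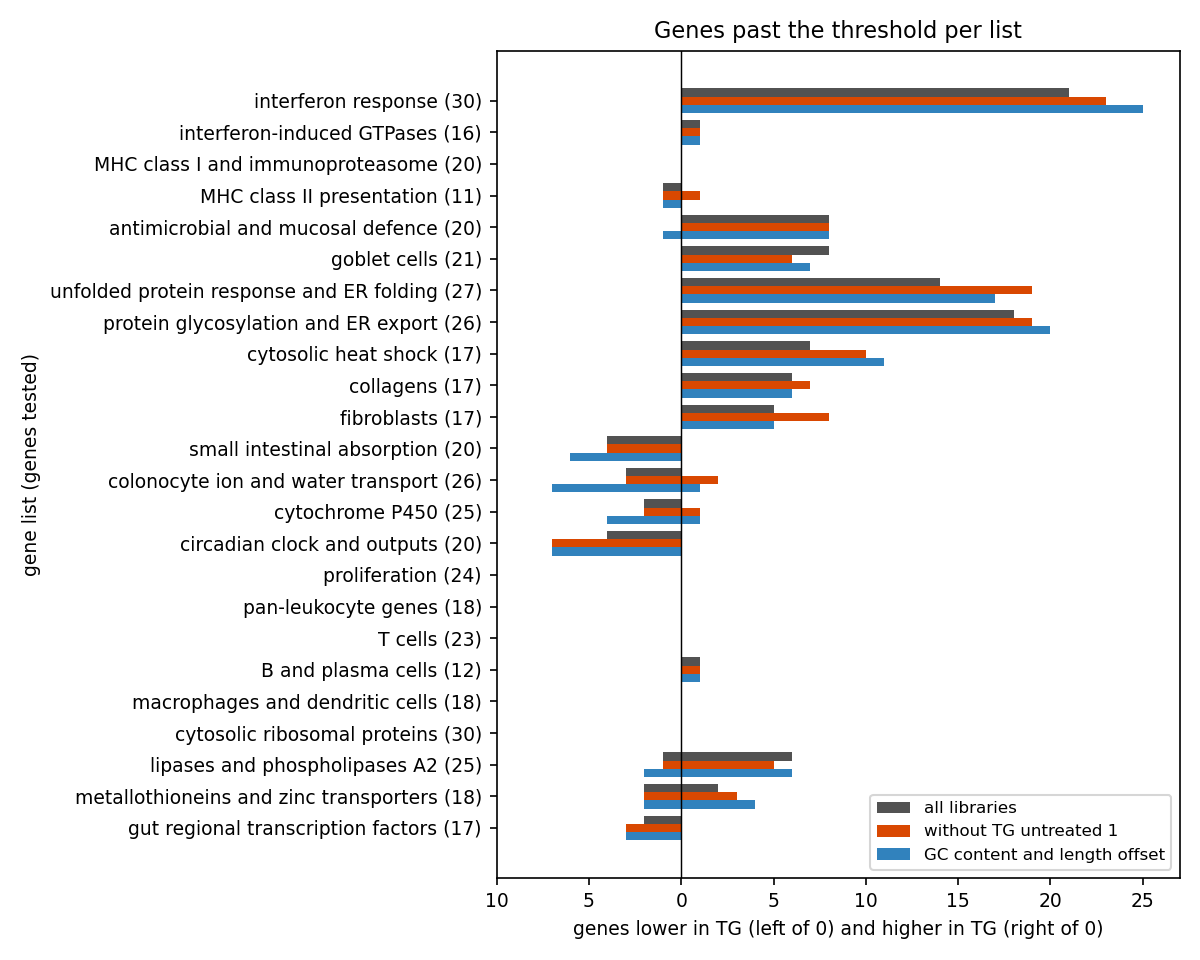
Number of genes past the threshold in each gene list, lower in TG to the left of 0 and higher to the right, with all libraries (grey), without TG1 (orange) and with the GC content and length offset (blue). The number of genes tested with all libraries stands in parentheses. The interferon response list counts 21, 23 and 25 rises, and the pan-leukocyte list none in any of the 3 fits.

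The 520 genes were spread over the chromosomes. Between 1.83% (chromosome X, 8 of 437) and 5.34% (chromosome 15, 30 of 562) of the tested genes of each chromosome passed, apart from Y, where 0 of 5 did. Metallothioneins, Oas, Reg3, Gbp, globin and MHC genes have close paralogs, and how the authors' counting divided shared reads among them is not given in the sources used here.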

How the data were processed

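RNA of intestinal tissue was sequenced from poly-A libraries on the BGISEQ-500, per the labels' protocols. The deposited tables hold, per gene, a length, an expected count and an FPKM, per the file headers. HISAT2 2.0.4, Bowtie2 2.2.5, RSEM 1.2.12 and build mm10 are named, without their roles, in the submitters' processing notes. The authors' expected counts, estimated per gene, were rounded, and the authors' FPKM values served as an alternative on the log2 scale. A gene missing from a table was set to 0. Positions, names and promoters came from RefSeq (GRCm38.p6).

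edgeR 4.0.16 (R 4.3.3) was fitted with TMM scaling and a quasi-likelihood test to all 10 libraries with 1 mean per group (biological coefficient of variation 0.171, with 6 residual degrees of freedom), on genes kept by its filter (count minimum 10, total 15). The contrast was untreated TG minus untreated WT, with Benjamini-Hochberg adjustment over 14072 genes. Alternatives used DESeq2 1.42.0, limma 3.58.1, other scalings and filters, a replicate block, FPKM, libraries left out, and an offset for GC content and length. In simulated data 55% of 2-fold and 87% of 4-fold changes were recovered (100 genes each), and 5.33% of calls were unchanged genes. Replicates of a genotype were not copies of each other, since every pair differed beyond sampling noise.

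The comparison and its 49 gene lists were chosen with earlier results of these data known. Named genes are ITGB6, the 12 largest rises and falls without overlap at 1 CPM or more, the 10 largest that passed in every fit without 1 untreated library, up to 6 members of a list by adjusted p, abundant leukocyte markers and runs of neighbouring genes. List members named outside this rule, mostly ones that did not pass, were chosen after their values were seen. Results for some genes are not reported here.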

Additional observations from a re-analysis of the deposited data

How the results depend on the processing

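The total of 520 genes was 1041 with DESeq2 (603 higher, 438 lower), 903 with the GC content and length offset (528 and 375), chosen after the data were seen, and 1835 with the untreated libraries alone and TG1 left out (1034 and 801). Leaving out 1 library at a time gave 58 to 730 genes (34 to 434 higher, 24 to 296 lower), the lowest without WT3 and the highest without TG1. Leaving out a TG library of the DSS group gave 367. Lower genes numbered 382 with total count scaling, and 331 and 312 on log2 FPKM with a pseudocount of 1 and 0.1; higher genes numbered 169 on log2 FPKM with a pseudocount of 1 and no filter. Replicate numbers did not pair the libraries (correlation of same-numbered deviations 0.083, -0.013 and -0.186), and with the replicate number as a block 267 genes passed (163 higher, 104 lower), 233 of them among the 520. The cause of these differences in count was not tested.

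Of 111 genes past the threshold that were named by the rule above, 107 passed without TG1, 38 without WT3, 94 with the untreated libraries alone, 111 with DESeq2 and 108 with the GC content and length offset, and none changed direction in any alternative run. With 1 untreated library left out, the absence of overlap between groups made a change of direction all but impossible. Mx2 and Pla2g3, named outside that rule, also lost their calls without TG1. Depth limits genes of few counts most.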

Other observations

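Banp, a DNA-binding protein, read 13.7, 14.1 and 11.8 CPM in WT and 32.7, 31.6 and 32.1 CPM in TG, with nearly equal TG libraries (log2 difference 1.28 ± 0.11, adjusted p = 0.000932, and 0.000734 without TG1, edgeR). Cd177, a surface protein known from neutrophils and also expressed by gut epithelium, read 155, 180.0 and 166 CPM in WT and 446.5, 475 and 364.5 CPM in TG (log2 difference 1.36 ± 0.12, adjusted p = 0.000956, edgeR). Both passed in each of the 6 fits without 1 untreated library.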
